A study of Mus musculus with 5 samples.

Results

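Capillary and arterial blood endothelial cells are the cells that line the small vessels and arteries of the mouse colon, and here they were chosen by their own UMI counts. A UMI is a unique molecular identifier, a tag that marks 1 captured mRNA molecule. A barcode with at least 300 genes and at most 10% mitochondrial UMIs was a member when it had a UMI of at least 3 of 7 endothelial genes (Flt1, Kdr, Plvap, Pecam1, Cdh5, Esam and Egfl7). Members also had fewer than 2 UMIs summed over the venular homing genes Selp, Sele, Madcam1 and Darc, and a UMI of fewer than 2 of the lymphatic genes Mmrn1, Prox1, Lyve1 and Reln. The rule found 496 members among 6005 retained cells of 7935 barcodes.

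All samples were colon mesenchyme of untreated C57/BL6 mice aged 10 weeks, so there was 1 group and no treatment to compare. Epithelium had been removed with EDTA and DTT before digestion with Collagenase XI and Dispase, and single cells were profiled by Drop-seq, which captures polyadenylated RNA on barcoded beads in droplets. Biological replicate 1 gave droplet collections 1A and 1B, and biological replicate 2 gave 2A, 2B and 2C. The number of animals behind each replicate is not in the labels. Cells are not replicates, so UMIs were summed per class and biological replicate. Standard errors (SE) and p-values rest on the UMI counts and on how the class differences varied between the 2 replicates. The spread of each gene was drawn toward that of all genes of the fit. A p-value is thus no measure of how that gene alone varied between replicates. All classes of a fit shared an estimate of this spread. The members were set against 3 other classes of the same suspensions: 37 venular cells (endothelial genes and 2 or more homing UMIs), 76 lymphatic cells (2 or more lymphatic genes) and 5165 non-endothelial cells (at most 1 endothelial gene).

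Endothelial cells control what passes between blood and tissue. Capillaries of the gut mucosa are fenestrated: pores in their walls are spanned by diaphragms of the protein Plvap, and VEGF signalling through Kdr maintains them. Arterial endothelium is patterned by Notch signalling and carries connexins such as Gja4 and Gja5, whereas venules recruit leukocytes through selectins and integrin ligands.

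The genes of the rule chose the cells, so their levels are a description with no test. Levels are CPM, the UMIs of a gene per 1000000 UMIs of the summed cells. Plvap (chromosome 8, 71497765 to 71511752; GRCm38) had 2419, 2036, 2902, 2268 and 2491 CPM in members of collections 1A, 1B, 2A, 2B and 2C. It had 2225 and 2602 CPM in the members of replicates 1 and 2, against 1825 and 2616 CPM in venular, 409.8 and 269.6 CPM in lymphatic and 31.7 and 31.3 CPM in non-endothelial cells. Members and venular cells were thus both high in Plvap. Flt1, a VEGF receptor that acts largely as a decoy, had 1757, 2217, 2039.5, 1889 and 1833 CPM in the 5 collections, all above the venular sums of 1049 and 1446 CPM and the lymphatic sums of 529 and 160.0 CPM. Kdr, the main signalling VEGF receptor, averaged 848 ± 45.4 CPM, and the adhesion molecules Pecam1, Cdh5 and Esam averaged 995 ± 62.7 CPM, 378 ± 19.9 CPM and 325 ± 4.96 CPM (SD, n = 2 replicates). Egfl7, a secreted regulator of vessel assembly, averaged 852 ± 82.8 CPM.

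All 7 endothelial genes had a UMI in 88 members, 6 in 137, 5 in 115, 4 in 86 and 3 in 70. At this edge, the 70 members with 3 endothelial genes had a summed pan-endothelial level of 5451 CPM and a summed fibroblast marker level of 3434 CPM. The 118 cells just outside, with 2 endothelial genes, had 1401 and 11179 CPM, and members with 4 or more had 10091 and 1482 CPM. At the venular edge, 24 members had 1 homing UMI and a summed venous level of 3120.4 CPM, beside 3798 CPM in the 6 cells with 2. At the lymphatic edge, 47 members had 1 lymphatic gene and a summed lymphatic level of 414 CPM, beside 3109 CPM in the 19 cells with 2.

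Members made up 8.25% ± 1.36 of retained cells (SD, n = 2 replicates) and 81.4% of the cells of the 3 endothelial classes. By collection the share was 8.37% in 1A, 10.3% in 1B, 7.24% in 2A, 7.64% in 2B and 7.02% in 2C. The share was highest in 1B, and the exact 95% binomial (Clopper-Pearson) intervals, which cover counting error only, overlapped for every pair of collections.

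**Figure D1:**
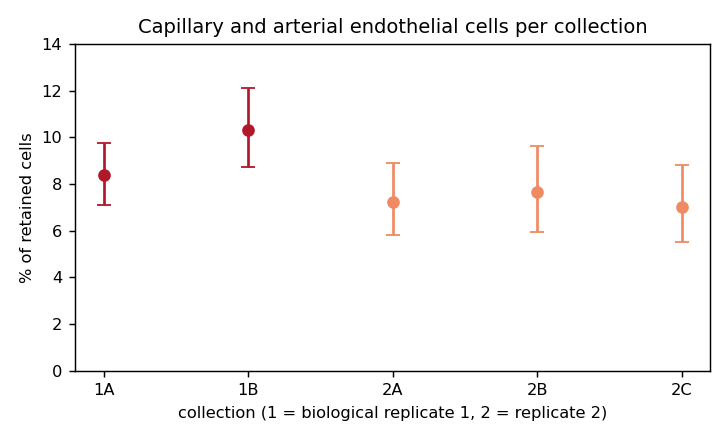
Share of retained cells that were capillary and arterial endothelial cells, in percent, in each of the 5 collections; points are shares and bars are exact 95% binomial intervals. The shares lay between 7.02% in 2C and 10.3% in 1B, and the intervals overlap.

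Members had a median of 2014.5 UMIs and 1080.5 genes, against medians of 3543 UMIs in venular, 3016 in lymphatic and 1275 in non-endothelial cells. Their sums held 787909 and 565747 UMIs in replicates 1 and 2, whereas the venular sums held 124918 UMIs of 22 cells and 47020 UMIs of 15 cells. There were 6 retained barcodes, none of them a member, that occurred in more than 1 collection. Scrublet marked 23 retained barcodes (0.383%), too few for the caller to have worked, so doublets were not removed. A total of 212 members (42.7%) carried 3 or more markers of another cell class, against 64.9% of venular and 63.2% of lymphatic cells. Fibroblast markers accounted for 183 of these members, smooth muscle markers for 59 and B or plasma cell markers for 27. Their part in the results was not tested beyond the fits that left such barcodes out.

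Endothelial genes that were not part of the rule were high in the members. All 26 tested genes of a pan-endothelial list were higher than in non-endothelial cells (edgeR quasi-likelihood test, Benjamini-Hochberg adjusted p under 0.05), with a median log2 fold change of 5.03. Over all 6910 tested genes, 24.4% were higher and 29.3% lower, with a median of -0.10. The rule cut both classes, so genes that vary with its genes had to differ. The adhesion receptor gene Gpr116 had 1452 and 1315 CPM in members, against 25.9 and 20.5 CPM in non-endothelial cells (log2 fold change 5.87 ± 0.21 SE, edgeR adjusted p = 4.3e-45). Rasip1, which organises the vascular lumen, had 468 and 477 CPM in members, against 6.98 and 5.39 CPM in non-endothelial cells (log2 fold change 6.20 ± 0.22 SE, edgeR adjusted p = 3.6e-45). Erg, an ETS transcription factor that maintains endothelial identity, had 543 and 551 CPM in members, against 8.48 and 7.95 CPM in non-endothelial cells. Every collection of members lay above both non-endothelial sums for these 3 genes. Against venular cells 2 of the 26 were higher and 1 lower, beside 1.82% and 2.49% of all genes. Ly6c1, a surface protein of microvessels, was 1 of the 2, at 1309.8 and 1418 CPM in members, against 768 and 914 CPM in venular cells. The call of Ly6c1 was lost in 6 alternative fits, among them those without collection 1A, 1B or 2B (log2 fold change 0.57 to 0.93).

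Markers of other cell types were present in the members. Of the fibroblast markers 12 of 12 tested were lower than in non-endothelial cells, of the smooth muscle markers 7 of 9, of the macrophage markers 8 of 8 and of the pericyte markers 1 of 3. Of the B or plasma cell markers 5 of 6 were lower, and of the dendritic markers 3 of 5. Over all genes tested in this comparison, 29.3% were lower and 24.4% higher. The pericyte count lay near the share over all genes. Smtn (smooth muscle), Ebf1 (B or plasma cell) and Zbtb46 (dendritic) were higher in members, yet they counted as markers of another class. Ebf1 also stood in the list of endothelial transcription factors. The 12 fibroblast markers summed to 1661 ± 154 CPM in members and 21669 ± 1297 CPM in non-endothelial cells (SD, n = 2). The 10 smooth muscle markers summed to 613 ± 39.5 CPM in members and 1346 ± 225 CPM in non-endothelial cells. The 10 pericyte markers summed to 339 ± 124 CPM in members and 488 ± 8.70 CPM in non-endothelial cells, with Higd1b at 0 in members. The 10 macrophage markers summed to 164 ± 5.66 CPM in members and 1206 ± 168 CPM in non-endothelial cells, with Fcgr1 at 0 in members. The B and plasma cell markers summed to 2566 ± 2918 CPM in members and 3798 ± 1126 CPM in non-endothelial cells, and their spread over the members' collections ran from 431 to 14867 CPM. Of 3 tested platelet or red cell markers 2 were called higher: Hbb-bs, a globin gene, had 303 and 141 CPM in members, against 90.0 and 101 CPM in non-endothelial cells, while Hba-a1, another, had 69.8 and 8.84 CPM in members, against 19.9 and 19.0 CPM in non-endothelial cells and was thus above them in replicate 1 only. Few cells held these globin UMIs: 1 member held 41.2% of the 379, and 5 members held 61.2%. The 2 members with the most were both of replicate 1. Without members carrying 3 or more markers of another class, Hbb-bs had 71.6 and 148 CPM. Hba-a1 then had 9.76 and 10.2 CPM.

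The promoters of Eng, a TGF-beta co-receptor, and Rasip1 are shown because the pan-endothelial genes were high together and ETS factors such as Erg bind sites with a GGAA core. Each runs from 250 bases before to 50 after the start site on the plus strand (RefSeq, GRCm38.p6), at chr2:32646345-32646644 for Eng and chr7:45627287-45627586 for Rasip1. Capitals mark AGGAAG or its reverse complement CTTCCT.
Eng: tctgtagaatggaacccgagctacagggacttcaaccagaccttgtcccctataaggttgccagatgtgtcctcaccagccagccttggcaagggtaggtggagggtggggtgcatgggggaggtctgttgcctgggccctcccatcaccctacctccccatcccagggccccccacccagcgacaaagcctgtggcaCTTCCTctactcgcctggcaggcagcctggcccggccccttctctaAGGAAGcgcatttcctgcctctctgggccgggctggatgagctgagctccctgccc
Rasip1: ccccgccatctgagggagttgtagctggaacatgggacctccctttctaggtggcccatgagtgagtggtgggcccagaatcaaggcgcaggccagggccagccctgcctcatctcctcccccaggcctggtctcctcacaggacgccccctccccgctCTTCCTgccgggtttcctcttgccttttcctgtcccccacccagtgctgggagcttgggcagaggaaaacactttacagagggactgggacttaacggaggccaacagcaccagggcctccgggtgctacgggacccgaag
RefSeq promoters were found for 18 of the 26 list genes. AGGAAG on either strand occurred in 52.2% of their 23 promoters, beside 35.4% of all 32851. CGGAAG, which does not overlap it, occurred in 13.0% of the list's promoters and 16.9% of all. A match describes letters in a window, not a bound site.

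Genes of fatty acid handling capillaries were mostly higher than in non-endothelial cells: 9 of 11 tested were higher, 2 were lower (Fabp5 and Lpl), and the median log2 fold change was 5.49. Fabp4, a fatty acid carrier (chromosome 3, 10204088 to 10208576), had 1739, 1576, 1617, 1669 and 1653 CPM in collections 1A to 2C. Its sums were 1656 and 1642 CPM in members, against 21.4 and 20.5 CPM in non-endothelial cells (log2 fold change 6.26 ± 0.22 SE, edgeR adjusted p = 4.2e-46), and 561 and 337 CPM in lymphatic cells. The 5 collections of members lay close together, and all were above both lymphatic sums. Car4, a membrane-bound carbonic anhydrase, had 97.7 and 97.2 CPM in members, against 0.499 and 0.770 CPM in non-endothelial cells. Cd36, a fatty acid transporter, had 229.7 and 209 CPM in members, against 58.8 and 62.9 CPM in non-endothelial cells. Lpl, lipoprotein lipase, had 5.08 and 8.84 CPM in members, against 85.0 and 98.8 CPM in non-endothelial cells. Against lymphatic cells the list went both ways: 5 of 11 tested were higher and 4, Lpl among them, were lower. The median log2 fold change was 0.72, and 13.3% of all genes were higher and 10.9% lower.

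Against venular cells, 4 of 11 of these genes were higher and 1 lower, with a median log2 fold change of 2.23, or 1.00 with genes at 0 UMIs held at their bound. Over all genes tested in this comparison 1.82% were higher and 2.49% lower. Fabp4 did not pass the test, at 1656 and 1642 CPM in members, against 1289 and 1531 CPM in venular cells (log2 fold change 0.33 ± 0.19 SE, edgeR adjusted p = 0.45). Tcf15, a transcription factor of capillary endothelium, had 157 and 150.2 CPM in members, against 40.0 and 21.3 CPM in venular cells (log2 fold change 2.23 ± 0.54 SE, edgeR adjusted p = 0.004). Rbp7, a retinol carrier, had no UMI in venular cells and was at least 8.26-fold higher in members, against a floor of 3 counts over the class. Car4 had 1 UMI in venular cells, and its ratio was 16.8, with an exact 95% counting interval of 2.96 to 667. Aqp1, a water channel, went the other way, at 47.0 and 99.0 CPM in members, against 184 and 362 CPM in venular cells. Aqp1 kept its call in every alternative fit that gave a value. The call of Tcf15 was lost with DESeq2 and without collection 1A (log2 fold change 2.23 to 2.30). The call of Rbp7 was lost without barcodes carrying other markers. The call of Car4 was lost with DESeq2 and without collection 1A, where its fitted log2 fold change was 3.98 and 3.19, beside 4.10 over all.

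**Figure D2:**
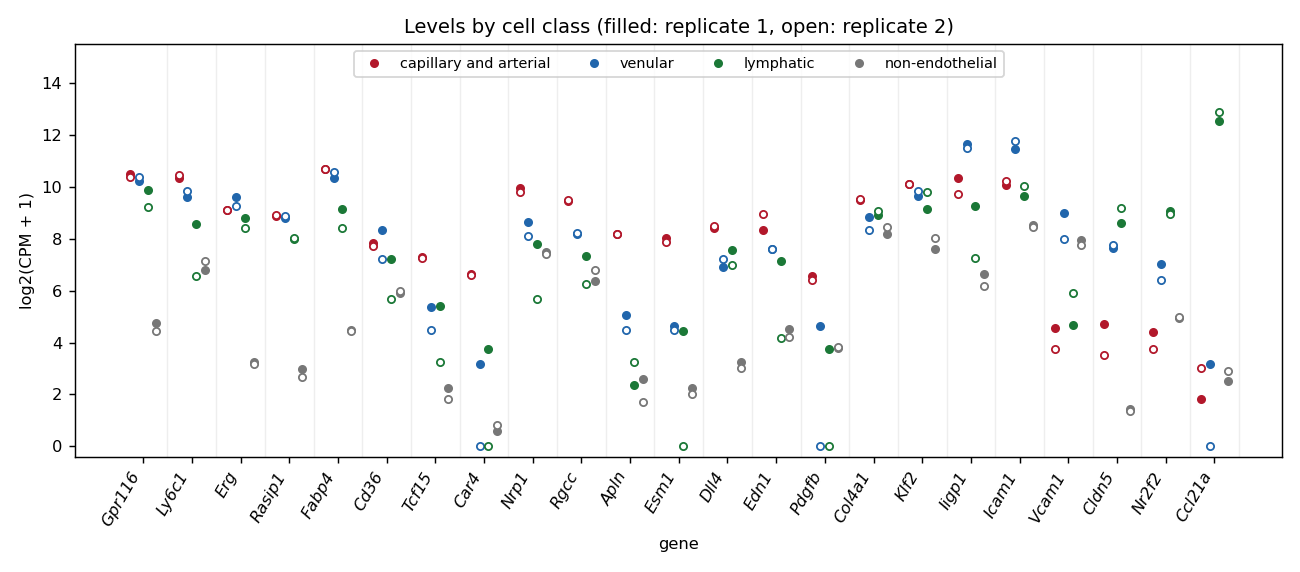
Levels of 23 genes as log2(CPM + 1) in the summed cells of 4 classes; filled points are biological replicate 1 and open points replicate 2. Fabp4 is high in capillary and arterial cells (1656 and 1642 CPM) and in venular cells (1289 and 1531 CPM), whereas Apln and Esm1 stand highest in capillary and arterial cells and Vcam1 and Cldn5 lie below venular cells.

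Fenestrated capillary genes were higher than in venular cells in 7 of 13 tested and lower in none, with a median log2 fold change of 1.32, beside 0.22 for all genes. Of all genes, 1.82% were higher and 2.49% lower. Esm1, a proteoglycan of VEGF-stimulated endothelium (chromosome 13, 113209659 to 113218098, overlapping Gzmk), had 273, 248, 282, 208 and 180.2 CPM in collections 1A to 2C. Its sums were 260.2 and 232 CPM in members, against 24.0 and 21.3 CPM in venular cells (log2 fold change 3.48 ± 0.54 SE, edgeR adjusted p = 1.1e-06), and every collection of members lay above both venular sums. Nrp1, a VEGF co-receptor, had 1000.1 and 893 CPM in members, against 400.3 and 276 CPM in venular cells (log2 fold change 1.50 ± 0.25 SE, edgeR adjusted p = 4.4e-06). Rgcc, a cell cycle regulator, had 699 and 716 CPM in members, against 288 and 298 CPM in venular cells, and Igfbp3, which binds insulin-like growth factors, had 583 and 553 CPM in members, against 136 and 42.5 CPM in venular cells. Esm1, Nrp1, Rgcc and Igfbp3 kept their calls in every alternative fit that gave a value. Plat, also among the 7, lost its call with DESeq2, with no replicate block and without collection 1A or 2A (log2 fold change 1.34 to 2.44), among other fits. Pdgfb, another of the 7, had 3 UMIs in venular cells. Against lymphatic cells 11 of 13 were higher and 1 lower, where 13.3% and 10.9% of all genes were. Igfbp3 did not pass this test, at 583 and 553 CPM in members and 758 and 480.1 CPM in lymphatic cells.

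Tip cell and sprouting genes were higher than in venular cells in 6 of 16 tested and lower in none, with a median log2 fold change of 1.05. Of all genes, 1.82% were higher and 2.49% lower. The 6 were Apln, Esm1, Dll4, Lamb1, Col4a1 and Col4a2, and Esm1 was also counted among the fenestrated capillary genes. Apln, a peptide that acts on the receptor Aplnr (chromosome X, 48025146 to 48034853), had 332, 240.2, 373, 226 and 217 CPM in collections 1A to 2C. Its sums were 286 and 286 CPM in members, against 32.0 and 21.3 CPM in venular cells (log2 fold change 3.36 ± 0.50 SE, edgeR adjusted p = 2.4e-07), and every collection of members lay above both venular sums. In lymphatic cells it had 2 UMIs, and the ratio of members to lymphatic cells was 51.9, with an exact 95% counting interval of 14.3 to 429.7. Apln UMIs occurred in 123 members. Dll4, a Notch ligand of tip cells and arteries, had 339 and 361 CPM in members, against 120.1 and 149 CPM in venular cells (log2 fold change 1.50 ± 0.32 SE, edgeR adjusted p = 6.9e-04), and Notch1, a Notch receptor, had 258 and 229.8 CPM in members, against 104 and 149 CPM in venular cells. Apln kept its call in every alternative fit that gave a value. The call of Dll4 was lost without barcodes carrying other markers and without collection 1A (log2 fold change 1.13 to 1.14). The call of Notch1 was lost in 15 alternative fits, among them those without collection 1A, 1B, 2A, 2B or 2C (log2 fold change 0.90 to 2.13).

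Basement membrane genes were higher than in venular cells in 6 of 14 tested and lower in none, with a median log2 fold change of 1.10. Of all genes, 1.82% were higher and 2.49% lower. Among the 6, Col4a1, Col4a2 and Lamb1 were also counted among the sprouting genes, and another among the fenestrated capillary genes. The type IV collagen chain genes Col4a1 and Col4a2 had 718 and 741 CPM in members, against 456 and 319 CPM in venular cells, and 663 and 579.8 CPM in members, against 312 and 234 CPM in venular cells. Lamb1, a laminin chain, had 231 and 212 CPM in members, against 56.0 and 63.8 CPM in venular cells. Sparc, a collagen-binding matrix protein, had 2367 and 2255 CPM in members, against 1089 and 936 CPM in venular cells, but it was lower than the 4455 and 4677 CPM of non-endothelial cells. Col4a2 and Sparc kept their calls in every alternative fit that gave a value. The call of Col4a1 was lost with DESeq2 and without collection 1A or 2A or 2B (log2 fold change 0.60 to 0.83). The call of Lamb1 was lost without collection 1A (log2 fold change 1.42). Fibroblast markers moved the same way: they summed to 1661 ± 154 CPM in members and 1174 ± 234 CPM in venular cells, and 1 of 12, Col1a2, was higher. Their part in the basement membrane result was not tested.

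In all, 126 of 6910 genes were higher (1.82%) and 172 lower (2.49%) in members than in venular cells. The higher count was 60 without collection 1A and 57 without 1B, and 36 with DESeq2. The lower count was 103 without 1B and 21 without barcodes carrying markers of another class, which removed 24 of the 37 venular cells.

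**Figure D3:**
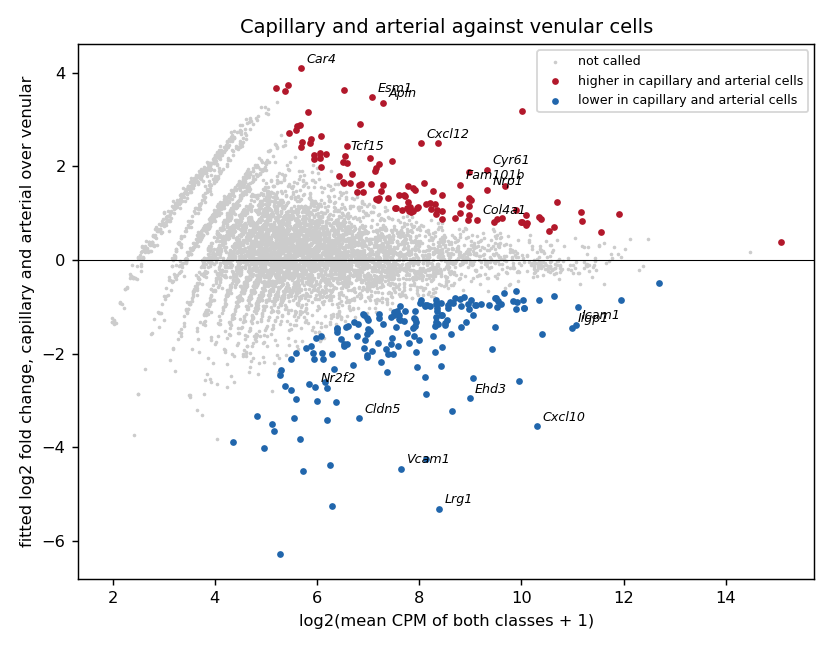
Log2 fold change of capillary and arterial cells over venular cells for 6449 genes with a UMI in both classes, against mean level; coloured points were called higher or lower at an adjusted p under 0.05. The 126 higher and 172 lower calls include 13 higher genes with no venular UMI that are not drawn, among the 461 left out.

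Venous genes were lower in members: 10 of 16 tested were lower than in venular cells and 1 was higher, with a median log2 fold change of -1.71. Of all genes, 2.49% were lower and 1.82% higher. The homing genes divided these classes, so genes that vary with them, in this and every other list, had to differ. Lrg1, a glycoprotein that modulates TGF-beta signalling (chromosome 17, 56119678 to 56122001), had 21.6 and 8.84 CPM in members, against 736 and 574 CPM in venular cells (log2 fold change -5.31 ± 0.34 SE, edgeR adjusted p = 4.5e-25). Vcam1, an adhesion receptor for leukocyte integrins, had 22.8 and 12.4 CPM in members, against 504 and 255 CPM in venular cells (log2 fold change -4.45 ± 0.36 SE, edgeR adjusted p = 8.6e-19). Icam1, another such receptor, had 1061 and 1209 CPM in members, against 2826 and 3467 CPM in venular cells, and members were above the 365 and 347 CPM of non-endothelial cells. Ehd3, an endocytic recycling protein, had 131 and 81.3 CPM in members, against 833 and 978 CPM in venular cells. Nr2f2, the transcription factor of venous identity, had 20.3 and 12.4 CPM in members, against 128 and 85.1 CPM in venular cells. The exception was Fam101b, a regulator of actin, at 702 and 665 CPM in members, against 272 and 149 CPM in venular cells. Lrg1, Vcam1 and Ehd3 kept their calls in every alternative fit that gave a value. The call of Icam1 was lost without barcodes carrying other markers (log2 fold change -0.49). The call of Nr2f2 was lost without barcodes carrying other markers and without collection 1A (log2 fold change -2.57 to -2.21). The call of Fam101b was lost with DESeq2 (log2 fold change 1.74).

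Several interferon response genes were lower in members than in venular cells, and most were higher than in lymphatic and non-endothelial cells. Of 22 tested, 8 were lower and none higher than in venular cells, 14 were higher and none lower than in lymphatic cells, and 20 were higher and 1, Ifitm1, lower than in non-endothelial cells. Over all genes tested, 2.49% were lower than in venular, 13.3% higher than in lymphatic and 24.4% higher than in non-endothelial cells. Their summed level was 9669.9 ± 1002 CPM in members, against 17774 ± 1962 CPM in venular, 7064 ± 401 CPM in lymphatic and 4462 ± 283 CPM in non-endothelial cells (SD, n = 2). Iigp1, an interferon-induced GTPase, had 1396, 1161, 842, 795 and 888 CPM in the members of collections 1A to 2C, against sums of 3186 and 2871 CPM in venular, 619 and 152 CPM in lymphatic and 97.5 and 71.1 CPM in non-endothelial cells. Gbp2, a guanylate-binding protein, had 301 and 228 CPM in members, against 881 and 1339.9 CPM in venular cells (log2 fold change -1.90 ± 0.21 SE, edgeR adjusted p = 2.2e-11). The interferon-induced chemokine Cxcl10 (chromosome 5, 92346638 to 92348889, overlapping Art3) had 361, 150.1, 166, 85.6 and 99.4 CPM in collections 1A to 2C, against 2378 and 2297 CPM in venular cells (log2 fold change -3.55 ± 0.21 SE, edgeR adjusted p = 1.2e-27). No collection of members reached either venular sum. Cxcl9, a related chemokine, had 31.7 and 10.6 CPM in members, against 288 and 787 CPM in venular cells. Iigp1, Gbp2, Cxcl10 and Cxcl9 kept their calls in every alternative fit that gave a value.

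Of 15 tested junction genes, 2 were lower and none higher than in venular cells, beside 2.49% and 1.82% of all genes. Cldn5, the claudin of endothelial tight junctions (chromosome 16, 18776847 to 18778262), had 25.4 and 10.6 CPM in members, against 200.1 and 213 CPM in venular cells (log2 fold change -3.38 ± 0.46 SE, edgeR adjusted p = 1.6e-08), and 385 and 581 CPM in lymphatic cells (log2 fold change -4.49 ± 0.31 SE, edgeR adjusted p = 1.9e-23). It was still above the 1.75 and 1.54 CPM of non-endothelial cells. The level in members rested on 26 UMIs in 15 members, 11 of them in 1 member. Gja1, a gap junction protein, had 338 and 336 CPM in members, against 608 and 595 CPM in venular cells. Cldn5 kept its call in every alternative fit that gave a value. The call of Gja1 was lost in 6 alternative fits, among them those without collection 1B, 2A or 2B (log2 fold change -0.80 to 0.15).

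**Figure D4:**
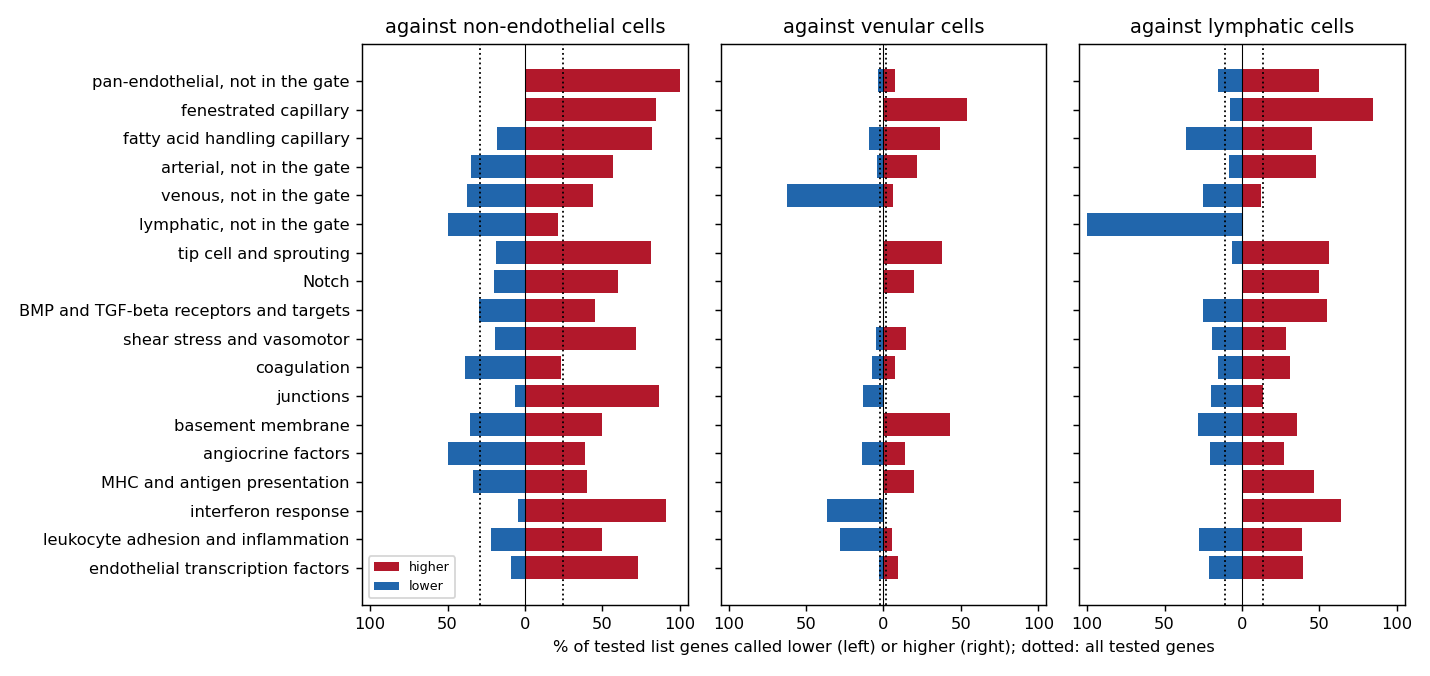
Percent of the tested genes of each of 18 lists called lower (to the left) or higher (to the right) in capillary and arterial cells against venular, lymphatic and non-endothelial cells; "not in the gate" means without the genes of the rule, and dotted lines mark the same percentages over all 6910 tested genes. Against venular cells, fenestrated capillary, sprouting and basement membrane genes extend to the right and venous and interferon genes to the left. Some genes stand in several lists.

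Against lymphatic cells, 921 genes were higher (13.3%) and 752 lower (10.9%), and without collection 1B the higher count was 537. Lymphatic genes outside the rule were lower in 14 of 14 tested, with a median log2 fold change of -5.33, or -5.21 with genes at 0 UMIs held at their bound. The lymphatic genes of the rule divided these classes, so genes that vary with them had to differ. Ccl21a, a chemokine of lymphatic endothelium, had 2.54 and 7.07 CPM in members, against 5942 and 7514 CPM in lymphatic cells (log2 fold change -10.41 ± 0.30 SE, edgeR adjusted p = 2.4e-53). Cp, the copper oxidase ceruloplasmin, had 16.5 and 12.4 CPM in members, against 1233 and 1482 CPM in lymphatic cells. Genes of BMP and TGF-beta signalling went both ways: 11 of 20 tested were higher and 5 lower. The target gene Id1 had 968 and 1105 CPM in members, against 332 and 135 CPM in lymphatic cells (log2 fold change 2.11 ± 0.22 SE, edgeR adjusted p = 1.5e-13), and Id3 had 2416 and 2648 CPM in members, against 762 and 623 CPM in lymphatic cells. Against venular cells none of the 20 was called in either direction. Ccl21a, Cp, Id1 and Id3 kept their calls in every alternative fit that gave a value.

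Genes of vessel tone and flow differed from lymphatic cells in 6 higher and 4 lower of 21 tested, and from venular cells in 3 and 1. Over all genes tested, 13.3% were higher and 10.9% lower than in lymphatic cells, and 1.82% and 2.49% than in venular cells. Edn1, the vasoconstrictor endothelin, had 337, 300.2, 369, 556 and 621 CPM in collections 1A to 2C and was highest in 2B and 2C. Its sums were 319 and 495 CPM in members, against 192 and 191 CPM in venular cells (log2 fold change 1.09 ± 0.31 SE, edgeR adjusted p = 0.021), and 139 and 16.8 CPM in lymphatic cells (log2 fold change 2.13 ± 0.29 SE, edgeR adjusted p = 2.4e-09). Ednrb, an endothelin receptor, had 204 and 212 CPM in members, against 40.0 and 63.8 CPM in venular cells. Calcrl, the receptor subunit for adrenomedullin, had 141 and 122 CPM in members, against 296 and 404 CPM in venular cells. Klf2, a transcription factor induced by laminar flow, had 1088 and 1114 CPM in members, against 561 and 884 CPM in lymphatic cells (log2 fold change 0.75 ± 0.19 SE, edgeR adjusted p = 0.0012). Ece1, which activates endothelin, had 604 and 543 CPM in members, against 1811 and 1845 CPM in lymphatic cells. The call of Edn1 was lost in 6 alternative fits, among them those without collection 1A or 2B (log2 fold change 0.59 to 1.13). The call of Ednrb was lost without collection 1B (log2 fold change 1.80, beside 2.18 over all) and without barcodes carrying other markers, where no venular UMI was left. The call of Calcrl was lost without barcodes carrying other markers (log2 fold change -0.31). Edn1, Klf2 and Ece1 kept their calls against lymphatic cells in every alternative fit that gave a value.

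Secreted factors that act on neighbouring cells went both ways. Of 44 tested, 17 were higher and 22 lower than in non-endothelial cells, and 6 were higher and 6 lower than in venular cells. Over all genes tested the shares were 24.4% and 29.3% against non-endothelial cells, and 1.82% and 2.49% against venular cells. Hbegf, an EGF receptor ligand, had 594 and 620.4 CPM in members, against 213 and 216 CPM in non-endothelial cells (log2 fold change 1.47 ± 0.19 SE, edgeR adjusted p = 5.6e-11). Bmp4 had 116 and 127 CPM in members, against 434 and 629 CPM in non-endothelial cells (log2 fold change -2.13 ± 0.18 SE, edgeR adjusted p = 5.6e-19), and the neutrophil chemokine Cxcl1 had 387 and 376 CPM in members, against 1569 and 1605 CPM in non-endothelial cells. Cyr61, a matricellular protein, had 957 and 1068 CPM in members, against 280.2 and 255 CPM in venular cells (log2 fold change 1.93 ± 0.24 SE, edgeR adjusted p = 1.8e-09). Cxcl12, the ligand of Cxcr4, had 437 and 408 CPM in members, against 48.0 and 149 CPM in venular cells (log2 fold change 2.49 ± 0.36 SE, edgeR adjusted p = 8.9e-08). Cyr61 and Cxcl12 kept their calls in every alternative fit that gave a value. Bmp4 and Cxcl1 kept their calls against non-endothelial cells in every alternative fit that gave a value. The call of Hbegf was lost with DESeq2 (log2 fold change 1.37).

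Endothelial transcription factor genes were higher than in non-endothelial cells in 24 of 33 tested and lower in 3, beside 24.4% and 29.3% of all genes. Tcf4, a basic helix-loop-helix factor, had 729 and 682 CPM in members, against 368 and 349 CPM in non-endothelial cells, and Mef2c, a MADS-box factor, had 439 and 424 CPM in members, against 119 and 67.7 CPM in non-endothelial cells. Against venular cells 3 were higher (Tcf15, Epas1 and Mef2c) and 1 lower, beside 1.82% and 2.49% of all genes. Among them Epas1, a hypoxia-inducible factor, had 344 and 366 CPM in members, against 192 and 106 CPM in venular cells (log2 fold change 1.13 ± 0.30 SE, edgeR adjusted p = 0.012). The call of Epas1 was lost with DESeq2, without immune-marked barcodes and without collection 1A or 2A or 2B (log2 fold change 0.87 to 1.13). Mef2c lost its call against venular cells with DESeq2 and without collection 1A, 1B, 2A, 2B or 2C (log2 fold change 0.76 to 0.93), among other fits.

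The arterial portion of the members was thinly marked. Of the arterial genes Gja4, Gja5, Sox17, Hey1, Efnb2, Bmx and Sema3g, none had a UMI in 202 members, 1 had in 170, and 2 or more had in 124 members (25%), here called arterial-type. The name stands for this division only. Of the 6 that were tested over all members, 6 were higher than in non-endothelial cells, where 24.4% of all genes were. Of 23 tested arterial genes outside the 7, 13 were higher and 8 lower than in non-endothelial cells, where 29.3% of all genes were lower. Against venular cells 1 of the 6 was higher, Gja4, and none lower, beside 1.82% and 2.49% of all genes. Gja4 had no venular UMI, and its call was lost with DESeq2 and without collection 1A or 1B. Against lymphatic cells, Sox17 was higher, and Hey1 and Bmx were lower. This call of Hey1 was lost with DESeq2, with no gene filter and without collection 1B (log2 fold change -1.12 to -0.85). By collection their share of members was 30.3% in 1A, 25.2% in 1B, 24.4% in 2A, 15.2% in 2B and 23.5% in 2C. Gja5, a connexin of arteries, reached 10.2 and 10.6 CPM over all members. Arterial-type members had a median of 3299.5 UMIs, against 1455 in members with no arterial gene, so the division moved with depth; its part was not tested. Among 4246 genes that made neither division, 4 were higher (0.0942%) and 10 lower (0.236%). Of 18 tested arterial genes outside the 7, 1 was higher, Glul, glutamine synthetase, with 308 and 305 CPM in arterial-type members, against 143 and 67.9 CPM in members with no arterial gene (log2 fold change 1.51 ± 0.31 SE, edgeR adjusted p = 0.012). Aqp1 had 76.1 and 159 CPM in arterial-type members, against 23.8 and 5.66 CPM in members with no arterial gene (log2 fold change 2.77 ± 0.57 SE, edgeR adjusted p = 0.012). Igfbp4, a binding protein of insulin-like growth factors, had 209 and 177 CPM in arterial-type members, against 47.5 and 56.6 CPM in members with no arterial gene, and Nudt4 had 406 and 505 CPM in arterial-type members, against 176 and 215 CPM in members with no arterial gene. Plvap, which chose the members, had 2119 and 2653 CPM in arterial-type members, against 2353 and 2479 CPM in members with no arterial gene.

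These counts moved with single collections. Without collection 1B no gene was higher and 1 was lower, with 92 and 95 genes at an unadjusted p under 0.05 in edgeR, and without 2A the counts were 7 and 19. DESeq2 called 0 higher and 4 lower, with 35 and 68 at an unadjusted p under 0.05. The call of Glul was lost in 6 alternative fits, among them those without collection 1B or 2A (log2 fold change 1.28 to 1.70). The call of Aqp1 was lost in 6 alternative fits, among them those without collection 1B or 2C (log2 fold change 1.90 to 3.10). The call of Igfbp4 was lost with DESeq2, with at least 4 endothelial genes required, without barcodes carrying other markers and without collection 1A or 1B (log2 fold change 1.74 to 1.94). The call of Nudt4 was lost with DESeq2, with at least 4 endothelial genes required, without barcodes carrying other markers and without collection 1B or 2A (log2 fold change 0.69 to 1.18).

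The 10 genes lower in arterial-type members included 4 MHC class II genes and, with the smallest changes of the 10, the fibroblast genes Col1a2 and Dpt. Cd74, the MHC class II invariant chain, had 187 and 141 CPM in arterial-type members, against 1849 and 385 CPM in members with no arterial gene, and the collagen gene Col1a2 had 117 and 127 CPM in arterial-type members, against 361 and 419 CPM in members with no arterial gene. MHC class II UMIs were held by few cells: 2 members, both of replicate 1, held 50% of the 1556 UMIs, and 1 member held 36.8%. Likewise 1 member held 89.0% of 2577 Igkc and Igj UMIs. By contrast, 50% of the Flt1 UMIs took 101 members, of Fabp4 79, and of Apln 24. Without the 36 members that carried 3 or more markers of an immune class, Cd74 had 154 and 136 CPM, beside 621 and 246 CPM over all members. The call of Cd74 was lost with at least 4 endothelial genes required, without immune-marked barcodes and without collection 1B (log2 fold change -0.75 to 0.30). The call of Col1a2 was lost with DESeq2, with at least 4 endothelial genes required and without collection 1A (log2 fold change -1.71 to -1.30).

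**Figure D5:**
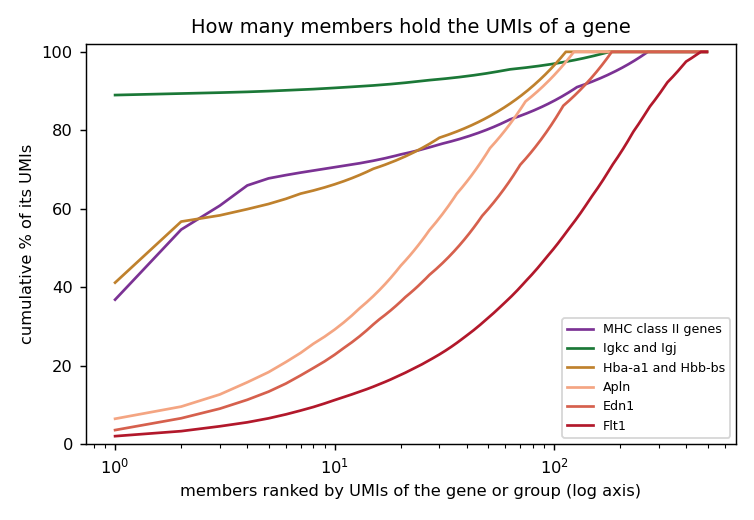
Cumulative percent of the UMIs of a gene or gene group over members ranked by those UMIs, with the number of members on a log axis. The first member holds 89.0% of Igkc and Igj UMIs and 36.8% of MHC class II UMIs, whereas 50% of Apln UMIs takes 24 members and of Flt1 UMIs 101.

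Members were also divided by Plvap. It had no UMI in 24 members, 1 in 68 and 2 or more in 404. Members without a UMI were too few to test (13 and 11 cells in replicates 1 and 2), so Plvap-high members, with 2 or more UMIs, were set against the 92 with at most 1, a division chosen after seeing the data. Plvap is a gene of the rule, so members low in it had to enter through its other genes, and what follows is a description. Among 2924 genes 41 were higher (1.4%) and 70 lower (2.39%). Apln had 311 and 319.8 CPM in Plvap-high members, against 79.8 and 43.8 CPM in the others, and Vwa1, a matrix protein, had 166 and 161 CPM in Plvap-high members, against 45.6 and 29.2 CPM in the others. The lower genes included those of other cells: Igkc, an immunoglobulin chain, had 141 and 105 CPM in Plvap-high members, against 217 and 30145 CPM in the others, Acta2, smooth muscle actin, had 44.3 and 30.2 CPM in Plvap-high members, against 319 and 539.6 CPM in the others, and Cd74 had 299.9 and 135 CPM in Plvap-high members, against 3179 and 1050 CPM in the others. Of 6 tested smooth muscle markers 5 were lower. The median was 2274 UMIs in Plvap-high members and 1046 in the others. Without immune-marked members 4 genes were higher and 17 lower. Without barcodes carrying any other class's markers edgeR called 0 in both directions, with 12 and 25 at an unadjusted p under 0.05, while DESeq2 on all members called 3 and 30. The higher count ran from 4 without 1B to 20 without 1A, with 15 without 2A, 14 without 2B and 8 without 2C. The lower count was 16 without 1B and 38 without 2C. Acta2 kept its call in every alternative fit that gave a value. The call of Apln was lost with DESeq2 and with at least 4 endothelial genes required (log2 fold change 1.57 to 2.28). The call of Vwa1 was lost in 7 alternative fits, among them those without collection 1B, 2A or 2C (log2 fold change 1.72 to 2.07). The call of Igkc was lost with at least 4 endothelial genes required, without immune-marked barcodes and without collection 2C (log2 fold change -0.97 to -0.39). The call of Cd74 was lost with at least 4 endothelial genes required and without immune-marked barcodes (log2 fold change -0.19 to 0.058). None of these genes gave a value without barcodes carrying other markers, and Acta2 gave none without immune-marked barcodes or without 1B.

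Levels in the members of the 2 biological replicates lay close together. Among 1722 genes of at least 100 CPM, the median absolute log2 difference was 0.16, and 17 differed by more than 2-fold.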

How the data were processed

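Each table gives the raw UMI count of a gene in a barcode, as deposited by the authors, with no scaling. Alignment used STAR 2.6 against mm10, according to the submitters' processing notes; the counting program and annotation are not given in the sources used here. Collections held 1636550 to 3345732 UMIs. Barcodes under 300 genes (1263) or, of the rest, over 10% mitochondrial UMIs (667) were left out. Class sums were compared with edgeR 4.0.16 (filterByExpr, TMM, quasi-likelihood F test, two-sided, Benjamini-Hochberg over all genes tested, threshold 0.05), blocked by biological replicate, since all classes of a replicate share 1 suspension. The 15 genes of the rule were not tested. Alternatives, DESeq2 1.42.0 among them, are given at the end. Named genes were the 10 largest called changes in each direction with at least 50 CPM in both sums of the higher class, a UMI in the lower and 1 direction in both replicates, and up to 4 genes per list by level. Other genes named in the text were chosen after their values were seen. A gene of the lists is not reported here. Members, lists and tests were chosen with earlier results of these data known. Of 566 genes matched to GENCODE (GRCm38), 84 overlapped another coding gene, and shared reads cannot be told apart.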

Additional observations from a re-analysis of the deposited data

Results flagged for a closer look

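Ssu2, among the genes furthest above non-endothelial cells, had 124.3 CPM in members of collection 2C, from 20 UMIs, against 62.5 to 79.5 CPM in the other 4 collections. The gap set collection 2C apart from the rest in 1 of 64 such tests, and chance marks about 1 in 20. Among 1930 barcodes left out, 61 (3.16%) met the endothelial part of the rule, 43 of them with over 10% mitochondrial UMIs and 18 with under 300 genes.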

How the results depend on the processing

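The data are limited by 2 replicates, 15 venular cells in replicate 2, and barcodes that carry markers of other cells; "mixed" below names barcodes with 3 or more markers of another class. Against non-endothelial cells 1123 genes were higher with DESeq2 and 825 without mixed barcodes, and 1254 were lower with sums per collection and 980 without mixed barcodes. Against venular cells 36 were higher with DESeq2, and 21 lower without mixed barcodes; leaving out 1 collection gave 57 to 108 higher and 103 to 184 lower. Against lymphatic cells the higher count was 483 with DESeq2, 600 with at least 4 endothelial genes, 357 without mixed barcodes and 537 to 746 without 1 collection. The lower count was 499 with no gene filter, 266 without mixed and 1177 without immune-marked barcodes. In the arterial division the counts of higher and lower genes were 0 and 4 with DESeq2, 9 and 35 with no gene filter, 0 and 2 with at least 4 endothelial genes, 9 and 16 with no mitochondrial limit, and 0 and 0 in edgeR without mixed barcodes, where 38 and 25 had an unadjusted p under 0.05. The higher count was 2 with no replicate block, 9 with sums per collection and 10 without immune-marked barcodes, and leaving out 1 collection gave 0 to 7 higher and 1 to 19 lower. In the Plvap division they were 3 and 30 with DESeq2, 13 and 18 with sums per collection, 2 and 7 with at least 4 endothelial genes, 0 and 0 without mixed, and 4 and 17 without immune-marked barcodes. The higher count was 124 with no gene filter, 20 with no replicate block and 16 without the 5% highest doublet scores, and leaving out 1 collection gave 4 to 20 higher and 16 to 60 lower. The replicate block moved no other count by over 1.5 times. The share of members was 10.2% with at least 2 endothelial genes and 4.96% without mixed barcodes.

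Some log2 fold changes turned round. With at least 4 endothelial genes they were -0.70 (Cd74) and -0.12 (H2-Ab1) against venular cells, -0.036 and -0.21 against lymphatic cells, 0.23 (Cd74) and 0.088 (H2-Aa) in the arterial division, and 0.058 (Cd74) and 0.19 (H2-Ab1) in the Plvap division. Without immune-marked barcodes they were -0.58 for Cd74 against venular cells, -0.38 (Cd74) and -0.50 (H2-Ab1) against lymphatic cells, and 0.30 (Cd74) and 0.23 (H2-Aa) in the arterial division. Without mixed barcodes they were 0.15 (Gja1), -0.28 (H2-Ab1) and 0.47 (Nfkbia) against venular cells and -0.76 (H2-Ab1) against lymphatic cells. Leaving out 1 collection gave -0.42 to 1.81 for Cd74 against venular cells, and -0.044 to 0.68 for Egr1 and -0.30 to 1.10 for H2-Ab1 against lymphatic cells. The cause was not tested. Scaling by RLE moved the median log2 fold change by -0.10 against non-endothelial and -0.12 against lymphatic cells. The planned test of members without a Plvap UMI was not run, since they were too few. Alternatives without immune-marked barcodes and the Plvap division were chosen after seeing the data.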

Other observations

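Cell cycle genes did not move together. Pcna, the replication clamp, had 591 and 519.7 CPM in members, against 212 and 176 CPM in non-endothelial cells (log2 fold change 1.48 ± 0.17 SE, edgeR adjusted p = 2.0e-12), whereas the proliferation marker Mki67 had 25.4 and 21.2 CPM in members, against 60.8 and 57.7 CPM in non-endothelial cells (log2 fold change -1.36 ± 0.30 SE, edgeR adjusted p = 4.9e-05). Genes of the immediate-early and heat-shock list, a readout of cell stress, took 3.59% ± 0.0370 of UMIs in members, against 3.33% ± 0.126 in venular, 2.93% ± 0.186 in lymphatic and 3.39% ± 0.225 in non-endothelial cells (SD, n = 2). Of 29 tested, 16 were higher and 1 lower than in lymphatic cells (13.3% and 10.9% of all genes). Against venular cells 5 were higher and none lower (1.82% and 2.49%), and against non-endothelial cells 6 and 11 (24.4% and 29.3%). Their part in the other results was not tested.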
